A study of Oryza sativa with 6 samples.

Results

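The phosphate transporters of the PHT1 family were examined in the rice internode together with PHR2 and PHO2, regulators of phosphate supply. The set held 8 loci, chosen by name: the transporters PT1 (Os03g0150600), PT2 (Os03g0150800), PT3 (Os10g0444600), PT4 (Os04g0186400), PT6 (Os08g0564000) and PT8 (Os10g0444700), with PHR2 (Os07g0438800) and PHO2 (Os05g0557700). All probes of these loci were taken, 27 of the 42418 gene probes on the array, and 8 of its 29695 loci. Knockout plants carried a CRISPR/Cas9-induced disruption of OsCAld5H1, the coniferaldehyde 5-hydroxylase of lignin synthesis, and were T2 plants of 1 edited line. They were set against wild-type plants, and both groups were of the cultivar Nipponbare, grown at 27 °C with 12 h of light a day and sampled at heading from the middle of the second internode counted from the top. Each genotype had 3 biological replicates with 1 array each. The promoter that drove the nuclease and the position of the edit are not given in the sources used here.

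PHT1 proteins are plasma membrane symporters that carry phosphate into the cell together with protons. PHR2 is a MYB-type transcription factor that switches on phosphate starvation genes, several transporters among them, and SPX proteins hold it back when phosphate is plentiful. PHO2 is a ubiquitin-conjugating enzyme whose transcript is cut under the guidance of the microRNA miR399, and it limits the amount of phosphate transporters and exporters. In roots the family takes phosphate up from soil, and in shoots it moves phosphate between tissues.

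All values below are log2 signals relative to the 75th percentile of the gene spots of the same array, so 0 is the level of that percentile. A probe was called well above background by the scanner software's own flag. Between 74.3% and 78.3% of gene spots were well above background on each array, and none was saturated. Each genotype was hybridised on a slide of its own, so a slide effect and a genotype effect cannot be told apart. The probe of OsCAld5H1 read -4.00, -1.78 and -1.23 in the knockout arrays, against -0.54, -0.52 and -0.05 in the wild-type arrays (difference -1.97, limma adjusted p 0.205) and, with the edit's position not given, does not check the edit. Levels are not compared between probes, since a microarray probe has its own response. In whole internodes, fewer cells of a type and less RNA per cell cannot be told apart.

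The tissue was checked against short marker lists, and the brightest probe of each locus was used. The stem secondary wall cellulose synthases CESA4, CESA7 and CESA9 were well above background on all 6 arrays, as were the 3 green tissue loci. Of 3 loci listed as root markers, the silicon transporters LSI1 and LSI2 were also well above background on all 6 arrays, while both probes of the root gene RCC3 were well above background on none. Summed over each list, linear signal in multiples of the 75th percentile ran from 14.5 to 26.1 in knockout and from 18.6 to 22.1 in wild-type arrays for the wall genes. For green tissue it ran from 107 to 166 in knockout and from 113 to 198 in wild-type arrays. For the root list it ran from 0.218 to 0.400 in knockout and from 0.928 to 1.22 in wild-type arrays, without overlap. Most of the root sum is LSI1's signal. Within the green list the brightest RBCS2 probe, D00643, was higher in the knockout without overlap, by 1.58, and did not pass (adjusted p 0.112); its 6 other probes overlapped, as did the brightest probes of CAB1R and CAB2R.

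The first question was which transporters the internode expresses. Every one of the 6 transporter loci had at least 1 probe well above background on all 6 arrays, but the probes of a locus did not tell the same story. Of the 22 transporter probes, 14 were well above background on all 6 arrays, 6 were on none, and the 2 others, both of PT2, were on some. PT1 alone among the transporters with several probes had all of them, 3 of 3, well above background throughout. For PT2 this held for 6 of 8 probes, for PT4 for 2 of 5, for PT6 for 1 of 3 and for PT8 for 1 of 2. PT3 had a single probe, which was well above background throughout.

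**Figure D1:**
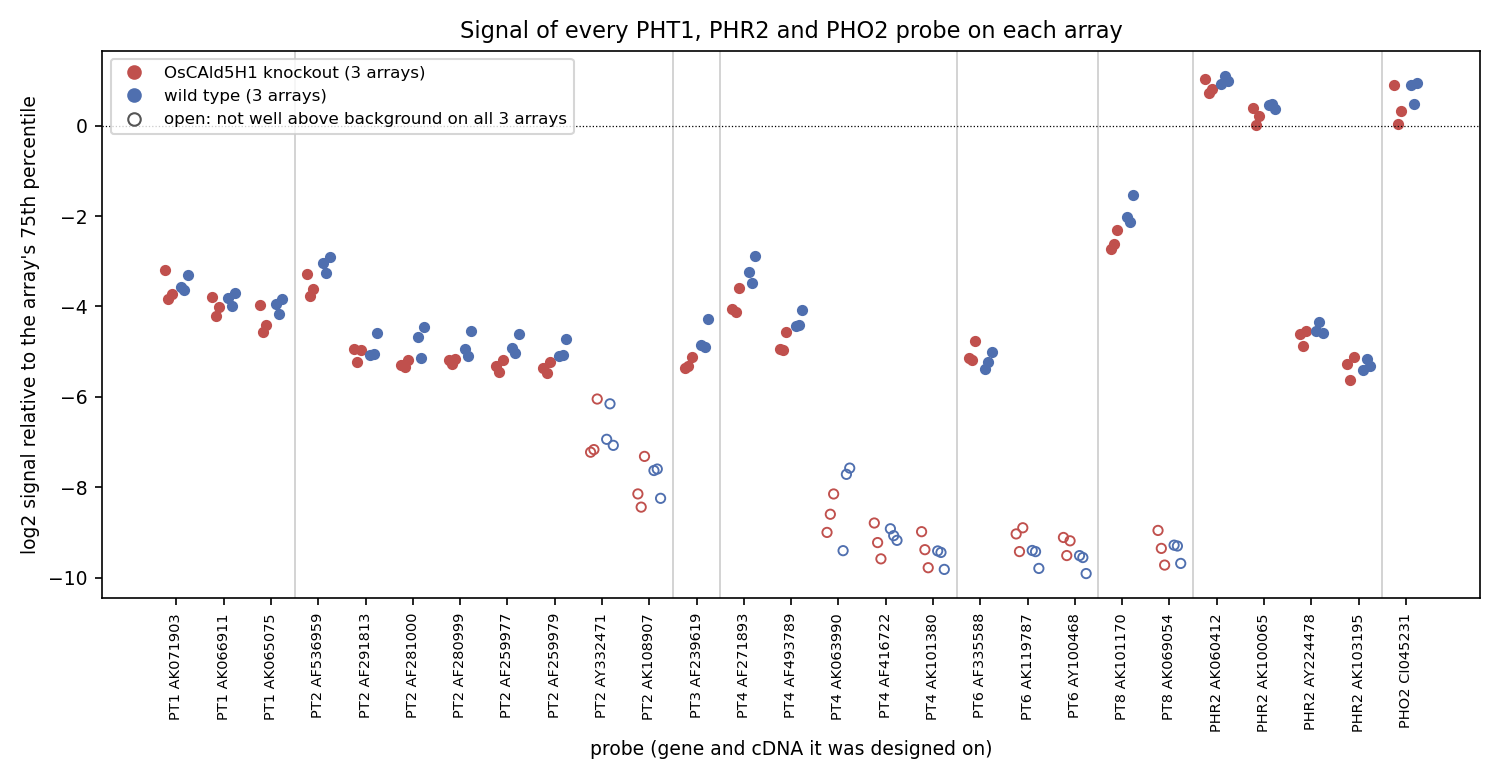
Signal of all 27 probes on each of the 6 arrays. The vertical axis is log2 signal relative to the array's 75th percentile, each point is 1 array, knockout arrays stand left of wild-type arrays, and open points mark probes not well above background on all 3 arrays of that genotype. Probes of PT2, PT4, PT6 and PT8 split between filled points above -6 and open points below it.

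The parts of the transcript that the probes cover differed in this. Of the 10 transporter probes designed within coding sequence alone, 9 were well above background on all 6 arrays, the exception being AY100468 of PT6. Of the 12 that span coding sequence and 3′ untranslated region, 5 were, and these belong to PT1, PT6 and PT8. For PT4 the contrast was complete: both coding probes were well above background everywhere, while its 3 probes reaching into the 3′ untranslated region were below that level on every array. The PT2 coding probes behaved likewise, against 2 probes at the 3′ side that passed on 3 and on 1 of the 6 arrays. Coding sequences of PHT1 genes resemble each other, and probe sequences were not used here. Whether a coding probe of PT2, PT3 or PT4 also reads a relative's transcript was not tested, and detection of these 3 loci rests on coding probes alone. PT6 showed no such split: of its 2 probes reaching into the 3′ untranslated region AF335588 passed on every array and AK119787 on none, and its coding probe also passed on none.

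Several of these genes lie side by side. In the RefSeq gene table of assembly ASM3414082v1, PT3 and PT8 are direct neighbours on chromosome 10. PT12 and PT1 are neighbours on chromosome 3, with 1 gene between PT1 and PT2. On chromosome 4, PT4 lies beside PT13, with 2 genes between it and PT5. PT6, PHR2 and PHO2 lie on chromosomes 8, 7 and 5.

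PHR2 had 4 probes, all well above background on all 6 arrays, and PHO2 had 1, which was too. The regulators are thus detected in the internode of both genotypes. The 2 PHR2 probes at the 3′ side averaged 0.86 ± 0.16 and 0.20 ± 0.19 in knockout arrays and 1.00 ± 0.10 and 0.43 ± 0.06 in wild-type arrays (SD, n = 3 each). Its probe in coding sequence averaged -4.67 ± 0.17 in knockout and -4.49 ± 0.13 in wild-type arrays, and that at the 5′ side averaged -5.34 ± 0.27 in knockout and -5.30 ± 0.12 in wild-type arrays.

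The second question was whether these transcripts differed between OsCAld5H1-knockout and wild-type internodes. In short, no transporter and neither regulator passed the test. At the PT8, PT4 and PT3 probes tested and at 5 of 6 of PT2, all knockout arrays lay below all wild-type arrays. Of all tested probes, 13.4% lay apart in that direction. Of the 27 probes, 19 were bright enough to be tested, covering all 8 loci. By limma with Benjamini-Hochberg adjustment over all 32134 tested probes, 0 of the 19 passed the threshold of 0.05, while 3.16% of all tested probes did, 1.87% higher and 1.29% lower in the knockout. Their adjusted p values ran from 0.146 to 0.903. At an unadjusted p under 0.05 there were 8 of 19, against 19.1% of all tested probes.

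The member probes were mostly lower in the knockout. Of the 19, 18 had a negative log2 difference, against 49.4% of all tested probes, and their median was -0.34, against 0.00 over all tested probes. For 9 of the 19 the arrays of the genotypes did not overlap and the knockout was lower, against 13.4% of all tested probes. Probes of 1 locus read the same gene, and all probes share the 6 arrays, so these are not independent counts. Set against each probe's wild-type mean, the 19 had a median of -0.11, -0.51 and -0.27 in knockout replicates 1, 2 and 3, and -0.07, -0.16 and 0.20 in wild-type replicates 1, 2 and 3. Knockout replicate 1 therefore lay within the range of the wild-type arrays.

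**Figure D2:**
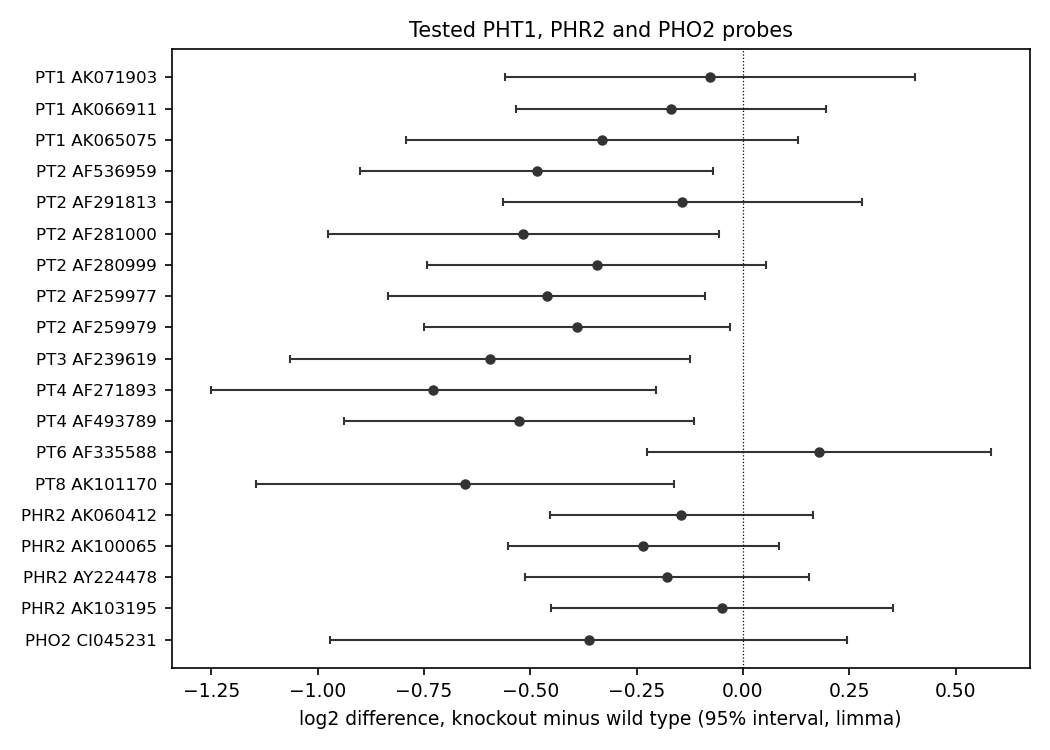
Log2 difference, knockout minus wild type, of the 19 tested probes, with 95% intervals from limma; the rows are probes, named by gene and cDNA. The point for PT6 is the one right of 0, and the intervals of 8 probes, from PT2, PT3, PT4 and PT8, lie wholly left of it before any adjustment for the number of probes.

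PT8, a high-affinity transporter found in rice roots and shoots, is read by the probe AK101170 in coding sequence and 3′ untranslated region. Its log2 signal was -2.72, -2.62 and -2.30 in knockout replicates 1, 2 and 3, against -2.03, -2.13 and -1.53 in wild-type replicates 1, 2 and 3. All knockout arrays lay below all wild-type arrays, with wild-type replicate 3 highest. The difference was -0.65 ± 0.20 (SE; 1.57-fold, 95% interval -1.15 to -0.16), with an adjusted p of 0.160, so it did not pass. The second PT8 probe, AK069054, which the array assigns to another transcript model of the gene, was well above background on no array.

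PT4, a transporter that works in root uptake in rice, was read by 2 coding probes. Probe AF271893 gave -4.05, -4.13 and -3.60 in knockout arrays, against -3.23, -3.49 and -2.88 in wild-type arrays. It had the largest difference of the 19, -0.73 ± 0.22 (SE; 1.66-fold, adjusted p 0.146). Probe AF493789 gave -4.95, -4.97 and -4.58 in knockout arrays, against -4.43, -4.42 and -4.07 in wild-type arrays, a difference of -0.53 ± 0.17 (adjusted p 0.172). Neither overlapped between genotypes and neither passed. With normexp and quantile normalisation the second was at -0.29.

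PT3 is read by the coding probe AF239619 alone. It gave -5.37, -5.32 and -5.12 in knockout arrays, against -4.85, -4.89 and -4.28 in wild-type arrays. The genotypes did not overlap, wild-type replicate 3 was again highest, and the difference of -0.59 ± 0.19 (SE; 1.51-fold) had an adjusted p of 0.177. With normexp and quantile normalisation it was -0.32.

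PT2, a low-affinity transporter of the rice root stele, had 6 tested probes, all in coding sequence. Their differences ran from -0.52 for AF281000 to -0.14 for AF291813, and 5 of them did not overlap between genotypes. The brightest, AF536959, read -3.28, -3.76 and -3.62 in knockout arrays, against -3.04, -3.26 and -2.90 in wild-type arrays. Its difference was -0.48 ± 0.17 (SE; 1.40-fold, adjusted p 0.204), and here knockout replicate 1 came close to wild-type replicate 2. Among all 6 the lowest adjusted p was 0.184, and with normexp and quantile normalisation the 5 dimmer probes were at -0.21 to -0.08. The 2 probes at the 3′ side were too dim to test.

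PT1, a transporter active in rice roots and shoots regardless of phosphate supply, overlapped between genotypes at each of its 3 probes. AK071903 read -3.20, -3.83 and -3.72 in knockout arrays, against -3.57, -3.63 and -3.31 in wild-type arrays, and knockout replicate 1 was the highest of the 6. The differences of the probes were -0.08, -0.17 and -0.33, with adjusted p values of 0.867, 0.589 and 0.402. The 95% interval of the brightest ran from -0.56 to 0.40, which leaves room for changes in either direction.

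PT6, a high-affinity transporter of uptake and root-to-shoot movement in rice, was the one locus with a positive difference. Its probe AF335588 read -5.13, -5.19 and -4.77 in knockout arrays, against -5.39, -5.24 and -5.01 in wild-type arrays. The genotypes overlapped, and the difference was 0.18 ± 0.17 (SE, adjusted p 0.611). The other PT6 probes, AK119787 and AY100468, were well above background on none of the 6 arrays.

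PHR2 overlapped between genotypes at all 4 probes. Its brightest probe, AK060412, read 1.03, 0.73 and 0.82 in knockout arrays, against 0.92, 1.11 and 0.98 in wild-type arrays. The difference was -0.14 ± 0.13 (SE; 95% interval -0.45 to 0.16, adjusted p 0.586). Those of the other probes were -0.23, -0.18 and -0.05, with adjusted p values from 0.393 to 0.903.

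PHO2 read 0.89, 0.04 and 0.32 in knockout arrays, against 0.91, 0.49 and 0.94 in wild-type arrays. Knockout replicate 1 matched the wild-type arrays, while replicates 2 and 3 lay below them all. The difference was -0.36 ± 0.25 (SE; 95% interval -0.97 to 0.24, adjusted p 0.484), and did not pass. It was -0.60 without knockout replicate 1 and -0.17 without knockout replicate 2.

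Likeness between loci was measured as the mean absolute gap, over the 6 arrays, between the deviations of brightest probes from their own means, among 24 other phosphate loci well above background throughout. For PT3 the nearest locus was PT8, at a gap of 0.052, against a median of 0.294 over the 24. PT8 was also nearest to PT4, at 0.066, against a median of 0.361. The nearest to PT2 was PAP10a (0.081), to PT1 the phosphate exporter PHO1;1 (0.081), and to PT6 the transcription factor PHR4 (0.160). PHR2 ran closest to its relative PHR1 (0.053), and PHO2 to PT2 (0.110). Probes of 1 locus also differed, by 0.127 between the 2 tested probes of PT4 and by up to 0.200 among the 6 of PT2. Of the 14 tested PHT1 probes, 8 lay nearest to a PHT1 probe of another locus. Among those 8 are the probes of PT3, PT6 and PT8, loci with 1 tested probe each, for which no other outcome was possible. These gaps describe 6 shared arrays and carry no test.

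**Figure D3:**
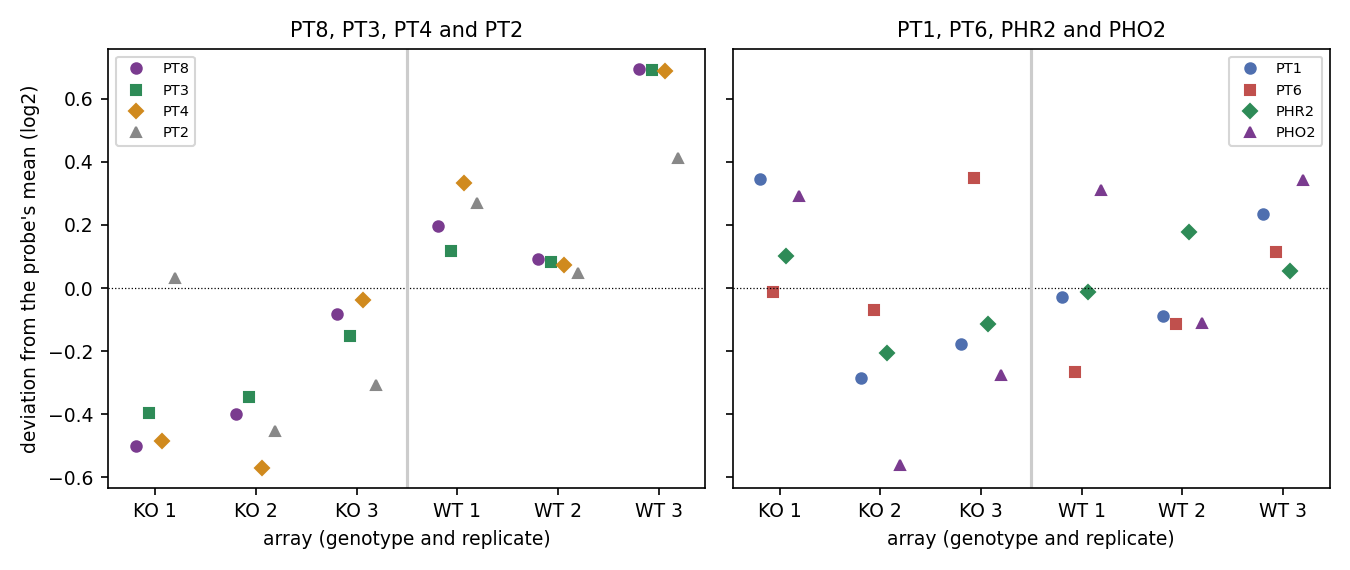
Deviation of each gene's brightest probe from its own mean over the 6 arrays, in log2 units, with knockout (KO) arrays left of wild-type (WT) arrays. PT8, PT3 and PT4 lie below their mean in the knockout and above it in wild type, whereas PT1, PT6, PHR2 and PHO2 overlap between genotypes.

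Of the root list, LSI1 and LSI2 were both lower in the knockout without overlap. LSI1, a silicon influx transporter, read -2.46, -1.73 and -1.58 in knockout arrays, against -0.27, -0.27 and 0.19 in wild-type arrays. It fell by 1.81 on the log2 scale (adjusted p 0.0267), a call that was lost without knockout replicate 2 (0.0814) or any one of wild-type replicates 1, 2 and 3 (0.102, 0.0952 and 0.113). LSI2, a silicon efflux transporter, read -4.88, -3.88 and -3.95 in knockout arrays, against -3.40, -2.80 and -3.65 in wild-type arrays (difference -0.96, adjusted p 0.208), and RCC3 was well above background on no array. Among knockout arrays LSI1 was lowest in replicate 1, as were PT8 and PT3 at their tested probes. The other tested member probes were lowest in knockout replicate 2, and the member median of replicate 1 lay within the wild-type range. The part of root-type transcripts in the transporter values was not tested.

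Beyond the 8 loci, the wider phosphate pathway was examined. A list of 28 further loci was used. Of these, 19 were tested, and at the brightest probe of each 1 fell, 0 rose and 18 did not pass, against 1.29% and 1.87% of all tested probes that fell and rose. The difference was negative for 15 of the 19, against 49.4% of all tested probes, and the median was -0.27.

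The 7 other PHT1 loci (PT5, PT7, PT9, PT10, PT11, PT12 and PT13) had 11 probes, and none was bright enough to be tested. PT7, PT9 and PT10 were well above background on no array. PT5 and PT13 were well above background on 1 knockout array each, PT12 on 1 array of each genotype, and PT11, known as a transporter of mycorrhizal roots, on 2 knockout arrays at 1 of its 4 probes. The PT5 probe read -7.59, -9.21 and -4.36 in knockout arrays, against -9.20, -8.35 and -9.60 in wild-type arrays. Knockout replicates 1 and 3 lay above all wild-type arrays and replicate 2 within their range.

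The gene that fell was SPX2, one of the SPX proteins that bind PHR-type factors. It read -3.95, -3.70 and -3.15 in knockout arrays, against -1.50, -0.92 and -1.17 in wild-type arrays, a difference of -2.40 ± 0.25 (SE, adjusted p 0.0123). The call was lost without knockout replicate 2 (adjusted p 0.0534), wild-type replicate 2 (0.0526) or wild-type replicate 3 (0.0668). SPX3 and the non-coding RNA IPS1, which in Arabidopsis sequesters miR399, differed by -0.94 and -0.81 and did not pass (0.213 and 0.112). With normexp and quantile normalisation they were at -0.13 and -0.21, and SPX3 was at -0.58 without knockout replicate 1. In the knockout 1 array of 3 had SPX3 well above background, and 2 of 3 had IPS1 at its brightest probe. Another IPS1 probe, AY568759, was well above background on no array.

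Transcription factors of the pathway did not pass. PHR3, a relative of PHR2, differed by -0.87 ± 0.41 (SE, adjusted p 0.321), and without knockout replicate 1 by -1.33 with an adjusted p of 0.0453. Without any other single array its adjusted p ran from 0.424 to 0.604, and the difference was -0.56 without knockout replicate 2. PTF1, a helix-loop-helix factor of phosphate starvation tolerance, differed by -0.28 and PHR4 by -0.08.

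Among genes that act on the transporters or alongside them, PHF1, which helps PHT1 proteins leave the endoplasmic reticulum, differed by 0.09 ± 0.46 (SE), and the ubiquitin ligase NLA1, which marks PHT1 proteins for breakdown, by -0.25 ± 0.20. The vacuolar transporter SPX-MFS2 differed by -1.09 ± 0.32 (SE, adjusted p 0.138), and its knockout arrays, at -3.59, -2.44 and -2.90, all lay below the wild-type arrays, at -2.08, -2.02 and -1.55. SPDT, a node transporter that directs phosphorus to the grain, differed by -0.68 ± 0.36 and the exporter PHO1;2 by 0.60 ± 0.44. SPDT was at -0.27 without knockout replicate 1, and PHO1;2 at 0.21 without knockout replicate 3 and at 0.28 without wild-type replicate 1. The acid phosphatase PAP10a was lower without overlap at all 3 of its probes, by -0.47, -0.54 and -0.43, with adjusted p values from 0.0960 to 0.145.

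**Figure D4:**
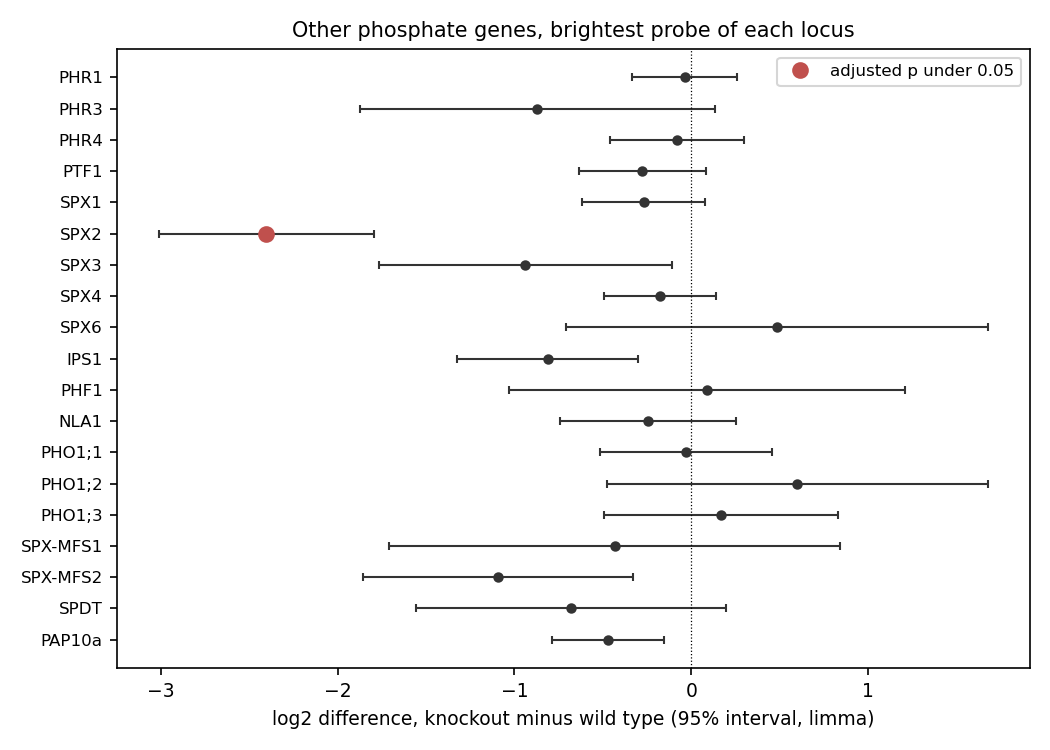
Log2 difference, knockout minus wild type, at the brightest probe of the 19 tested loci of the wider phosphate pathway, with 95% intervals from limma. SPX2 alone, at -2.40, is marked as past an adjusted p of 0.05.

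Probes for miR399, the microRNA that guides cleavage of PHO2 transcripts, went the other way. Of 33 miR399 probe names, 24 were well above background on no array and 5 were bright enough to test. All 5 were higher in the knockout, by 0.33 to 1.19, whereas 49.4% of all tested probes had a difference below 0. These 5 probes share the same arrays and are not independent counts. Both that passed cover mature sequences and are named for having passed, with their values known. The mature-sequence probes of miR399a, miR399b, miR399c, miR399d, miR399j and miR399k were well above background on no array. The arrays read labelled cRNA made from total RNA, and whether these probes read the mature microRNA or a longer transcript was not tested. The miR399e probe averaged -3.35 ± 0.13 in knockout and -4.54 ± 0.13 in wild-type arrays (SD, n = 3 each), and rose by 1.19 (adjusted p 0.0136). The miR399g probe averaged -3.56 ± 0.30 in knockout and -4.67 ± 0.13 in wild-type arrays, and rose by 1.11 (adjusted p 0.0337). Both calls were lost without knockout replicate 2 (adjusted p 0.0517 for miR399e and 0.0885 for miR399g) and without any one of the wild-type replicates (0.0596 to 0.0795 for miR399e, 0.108 to 0.150 for miR399g). Of all tested probes 1.87% rose. The probes for the 3′ and 5′ sequences of miR399g were well above background on no array. For miR399e the 3′ probe was so on no array, and the 5′ probe on 1 knockout array. Of the array designers' own control probes, 5 of 59 were bright enough to compare, and for 4 of these all knockout arrays lay above all wild-type arrays, by up to 1.54. Of all tested probes 13.5% lay apart in that direction. The control probes' part in the miR399 values was not tested. With normexp background correction and quantile normalisation the differences were 0.64 for miR399e (adjusted p 0.0247) and 0.54 for miR399g (adjusted p 0.0755).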

How the data were processed

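Total RNA (0.1 µg per sample) gave Cy3-labelled cRNA, per the labels' protocols, for Agilent rice arrays of 1 colour. The deposited scanner files hold processed spot intensity. Per the file headers, Feature Extraction 12.0.3.1 had subtracted background and removed spatial trends; arrays were not scaled to each other. The authors' value table holds intensity equal to that signal times 1 constant per array, from 1.51 to 1.72; the basis of these constants is not given here, and the values are linear and uncentred. Its medians over gene spots ran from 396 to 411.

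The log2 of the processed signal minus the array's 75th percentile over gene spots was used. Left out were the 590 spots of design control probes and 5 to 9 outlier spots per array; replicate spots were averaged. Probes with over 0.5 of their spots well above background on all 3 arrays of a genotype entered the test. A two-sided limma model (version 3.58.1, R 4.3.3) had genotype alone as its term, over 32134 probes, with Benjamini-Hochberg adjustment, and was tested on simulated data. The number of arrays limits precision. The brightest probe stood for a locus.

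The members, lists and tests were chosen with earlier results of these data known. All 8 members and pathway genes tested were named by rule: every member, each pathway gene past the threshold, and the 3 largest differences per role at the brightest probe, with the nearest locus by likeness; other pathway genes were named for detection alone or, for PT5, after its values were seen. Gene names of loci come from rice nomenclature; of the 8 members 7 names, and of 28 pathway genes 17, occur in the RefSeq table, each on the chromosome its locus number names. As an alternative, normexp (offset 50) was run on median spot signal and median background. Promoter and probe sequences were not used here. The labels do not say that a replicate number marks a shared batch, so replicate numbers were not used as pairs. Same-numbered arrays of the genotypes did not all deviate together, which does not decide whether they were paired.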

Additional observations from a re-analysis of the deposited data

How the results depend on the processing

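No member probe passed under any of the 15 alternatives, and 280 of 285 recomputed member differences kept their sign. The filter settings, outlier spots kept, the replicate block and limma-trend left each member difference as it was. Signs could not turn under those settings, so the count says little about them. The lowest adjusted p of a member was 0.0889 (PT8, normexp with quantile normalisation), and 0.0761 (PT2 AF536959) with 1 array left out. The median member difference ran from -0.42 to -0.18 over the other settings and from -0.44 to -0.20 with 1 array left out. The -0.18 was over 27 probes, without a filter on dim probes. The -0.42 was found with array weights over 19 probes and also over the 8 brightest probes, 1 per locus. Without knockout replicate 2 the median was -0.20. Signs turned for 3 member probes whose differences were near 0. PT1 AK071903 ran from -0.27 to 0.045, PT2 AF291813 from -0.22 to 0.016 and PHR2 AK103195 from -0.16 to 0.10 with 1 array left out; the cause was not tested. Of the other genes, PHF1 was at -0.026 with array weights and ran from -0.33 to 0.53, and PHR4 from -0.22 to 0.018, with 1 array left out.

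The count of called probes over the whole array, 1016, fell to 645 without a filter on dim probes, where more probes were tested, and to 458 with a replicate block; with 1 array left out it ran from 136 to 1505, and was 245, 145, 197 and 136 without knockout replicate 2 and wild-type replicates 1, 2 and 3. Correlations of the deviations of same-numbered arrays were 0.41, -0.17 and 0.16. With 3 arrays per genotype, these do not decide whether the numbers pair the samples. The replicate block changed the call of no member. With normexp 456 probes rose and 494 fell, against 600 and 416. The miR399g call ended with normexp (adjusted p 0.0755), without a filter (0.0588) and without knockout replicate 2 or any wild-type replicate (0.0885 to 0.150), and that of miR399e without those same arrays (0.0517 to 0.0795). With normexp the differences of PT3, PT4 and PT2 were nearer 0, at -0.32 for PT3 and -0.13 for PT2 AF259977; the cause was not tested.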
